A study of Mus musculus with 4 samples.

Results

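The histone cluster 1 genes of the mouse were examined for open chromatin in the surface ectoderm of the face. They were taken as the protein-coding genes of GENCODE vM21 on chromosome 13 whose symbol starts with Hist1h, which gave 54 of 21938 protein-coding genes: 6 H1, 13 H2A, 15 H2B, 9 H3 and 11 H4 genes. Each gene was given the start site of its principal transcript on GRCm38, and a peak was assigned to a gene by the distance from its centre to that site. ATAC-seq, in which a transposase inserts adapters into nucleosome-free DNA, had been applied at E11.5 to pooled surface ectoderm of facial prominences, as 2 control and 2 EDKO libraries. Control embryos were Tfap2a flox/+; Tfap2b flox/+ littermates without Crect, a Cre transgene active in early embryonic ectoderm, and EDKO embryos were Crect; Tfap2a flox/flox; Tfap2b flox/flox, so that both groups carried floxed alleles of the AP-2α and AP-2β genes and EDKO embryos alone carried the Cre. The loss of both genes is limited to cells in which Crect has been active. The list of control peaks, called from both control libraries, has 65467 entries, and a second list, called on controls with EDKO as background, has 3103 AP-2-dependent nucleosome-free regions, which are open in controls relative to EDKO. Libraries were combined in each call, so a peak in these lists has no value per library, no error between libraries and no read count.

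Histones package DNA into nucleosomes, with H2A and H2B as dimers, H3 and H4 as a tetramer, and H1 on the linker DNA. Most of these proteins are made in S phase from clustered, intronless genes present in many near-identical copies, and their mRNAs end in a stem-loop instead of a poly(A) tail. H2A and H2B genes commonly stand back to back and are transcribed in opposite directions from a shared promoter. The testis types Hist1h1t, Hist1h2aa and Hist1h2ba are known from male germ cells.

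The DNA between the start sites of such a pair is shown for 1 pair with an AP-2-dependent region over each gene and for 1 pair without a region, on GRCm38, plus strand, chr13:21716144-21716421 and chr13:23683949-23684198. Capitals mark, on either strand, the string TATAAA of the TATA box, the string CCAAT of the box of that name and the octamer string ATTTGCAT, 3 elements known from histone promoters, and the matches do not overlap in these sequences.
Hist1h2bl to Hist1h2ai: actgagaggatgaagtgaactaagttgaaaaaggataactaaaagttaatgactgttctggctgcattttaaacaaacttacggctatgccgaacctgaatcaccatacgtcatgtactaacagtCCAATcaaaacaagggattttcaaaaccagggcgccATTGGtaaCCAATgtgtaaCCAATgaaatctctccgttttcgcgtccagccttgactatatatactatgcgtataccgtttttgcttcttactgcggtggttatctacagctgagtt
Hist1h2ac to Hist1h2bc: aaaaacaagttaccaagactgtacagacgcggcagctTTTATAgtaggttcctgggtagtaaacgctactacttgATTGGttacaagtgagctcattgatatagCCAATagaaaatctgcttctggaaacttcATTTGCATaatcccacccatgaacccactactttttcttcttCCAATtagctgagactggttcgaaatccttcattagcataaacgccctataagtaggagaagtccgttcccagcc

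The regions lay mostly not in this DNA but over the coding sequence beside it. The 162 bases that all 8 regions centred over an H2A coding sequence have in common, bases 125 to 286 of that sequence, are shown for Hist1h2ai (chr13:21716546-21716707, plus strand), which had a region, and for the 3 H2A genes without one, Hist1h2ac (chr13:23683632-23683793, minus strand), Hist1h2ak (chr13:21753542-21753703, minus strand) and the testis type Hist1h2aa (chr13:23934586-23934747, plus strand). They are written in the direction of the gene, and capitals mark the bases that differ from Hist1h2ai.
Hist1h2ai: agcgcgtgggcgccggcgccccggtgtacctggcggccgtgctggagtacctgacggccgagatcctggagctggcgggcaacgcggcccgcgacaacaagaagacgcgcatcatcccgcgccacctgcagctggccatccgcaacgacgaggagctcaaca
Hist1h2ac: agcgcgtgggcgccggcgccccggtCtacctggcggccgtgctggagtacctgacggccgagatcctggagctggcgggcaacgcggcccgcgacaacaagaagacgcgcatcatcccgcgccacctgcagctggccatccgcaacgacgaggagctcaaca
Hist1h2ak: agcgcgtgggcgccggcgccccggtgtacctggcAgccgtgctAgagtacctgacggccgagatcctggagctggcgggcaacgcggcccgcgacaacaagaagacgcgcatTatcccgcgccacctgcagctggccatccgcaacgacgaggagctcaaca
Hist1h2aa: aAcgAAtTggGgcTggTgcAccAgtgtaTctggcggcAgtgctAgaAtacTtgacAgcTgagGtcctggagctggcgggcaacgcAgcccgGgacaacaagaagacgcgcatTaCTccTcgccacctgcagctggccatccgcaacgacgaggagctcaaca

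The corresponding stretch of the 3 regions centred over H2B genes has 148 bases, from base 66 to base 213 of the coding sequence. It is shown for Hist1h2bl (chr13:21715931-21716078, minus strand), which had a region over its coding sequence, and for Hist1h2bj (chr13:22043295-22043442, plus strand), which had none there. The region over Hist1h3i, an H3 gene, is shown whole (chr13:21783086-21783279, minus strand). Capitals here mark GCCNNNGGC, a consensus string of AP-2 sites that reads the same on both strands.
Hist1h2bl: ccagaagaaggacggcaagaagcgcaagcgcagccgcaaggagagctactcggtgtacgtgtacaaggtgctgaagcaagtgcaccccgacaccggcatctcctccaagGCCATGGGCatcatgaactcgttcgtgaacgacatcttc
Hist1h2bj: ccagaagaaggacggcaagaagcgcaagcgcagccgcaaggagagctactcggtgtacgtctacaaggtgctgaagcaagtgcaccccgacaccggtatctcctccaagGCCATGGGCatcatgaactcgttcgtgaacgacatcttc
Hist1h3i: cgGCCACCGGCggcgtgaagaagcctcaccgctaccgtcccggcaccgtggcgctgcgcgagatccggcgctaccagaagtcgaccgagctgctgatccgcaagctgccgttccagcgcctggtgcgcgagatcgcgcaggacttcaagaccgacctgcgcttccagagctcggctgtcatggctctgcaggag

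In control ectoderm the histone cluster 1 promoters were open. A control peak was centred within 1 kb of the start site in 50 of 54 genes, 92.6% (95% Wilson interval 82.4 to 97.1%), while the share over all protein-coding genes was 63.4%. Every one of the 13 H2A, 15 H2B and 9 H3 genes had such a peak, as had 10 of 11 H4 genes and 3 of 6 H1 genes. The intervals treat genes as independent and cover counting error only, although 16 of the 34 distinct peaks were shared by several start sites.

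The 54 genes lay over 2.22 Mb of chromosome 13 in 4 blocks separated by more than 100 kb, with 18, 5, 29 and 2 genes. All genes of blocks 1, 2 and 4 had a control peak, and so had 25 of the 29 genes of block 3. Of the 49 other protein-coding genes with a start site inside this span, 7 had a control peak. This is 14.3% (7.1 to 26.7%), beside 63.4% of all protein-coding genes. The 49 include 36 vomeronasal receptor (Vmn1r) genes, none of which had one, and Zfp184, Zfp322a and Abt1, which did.

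**Figure D1:**
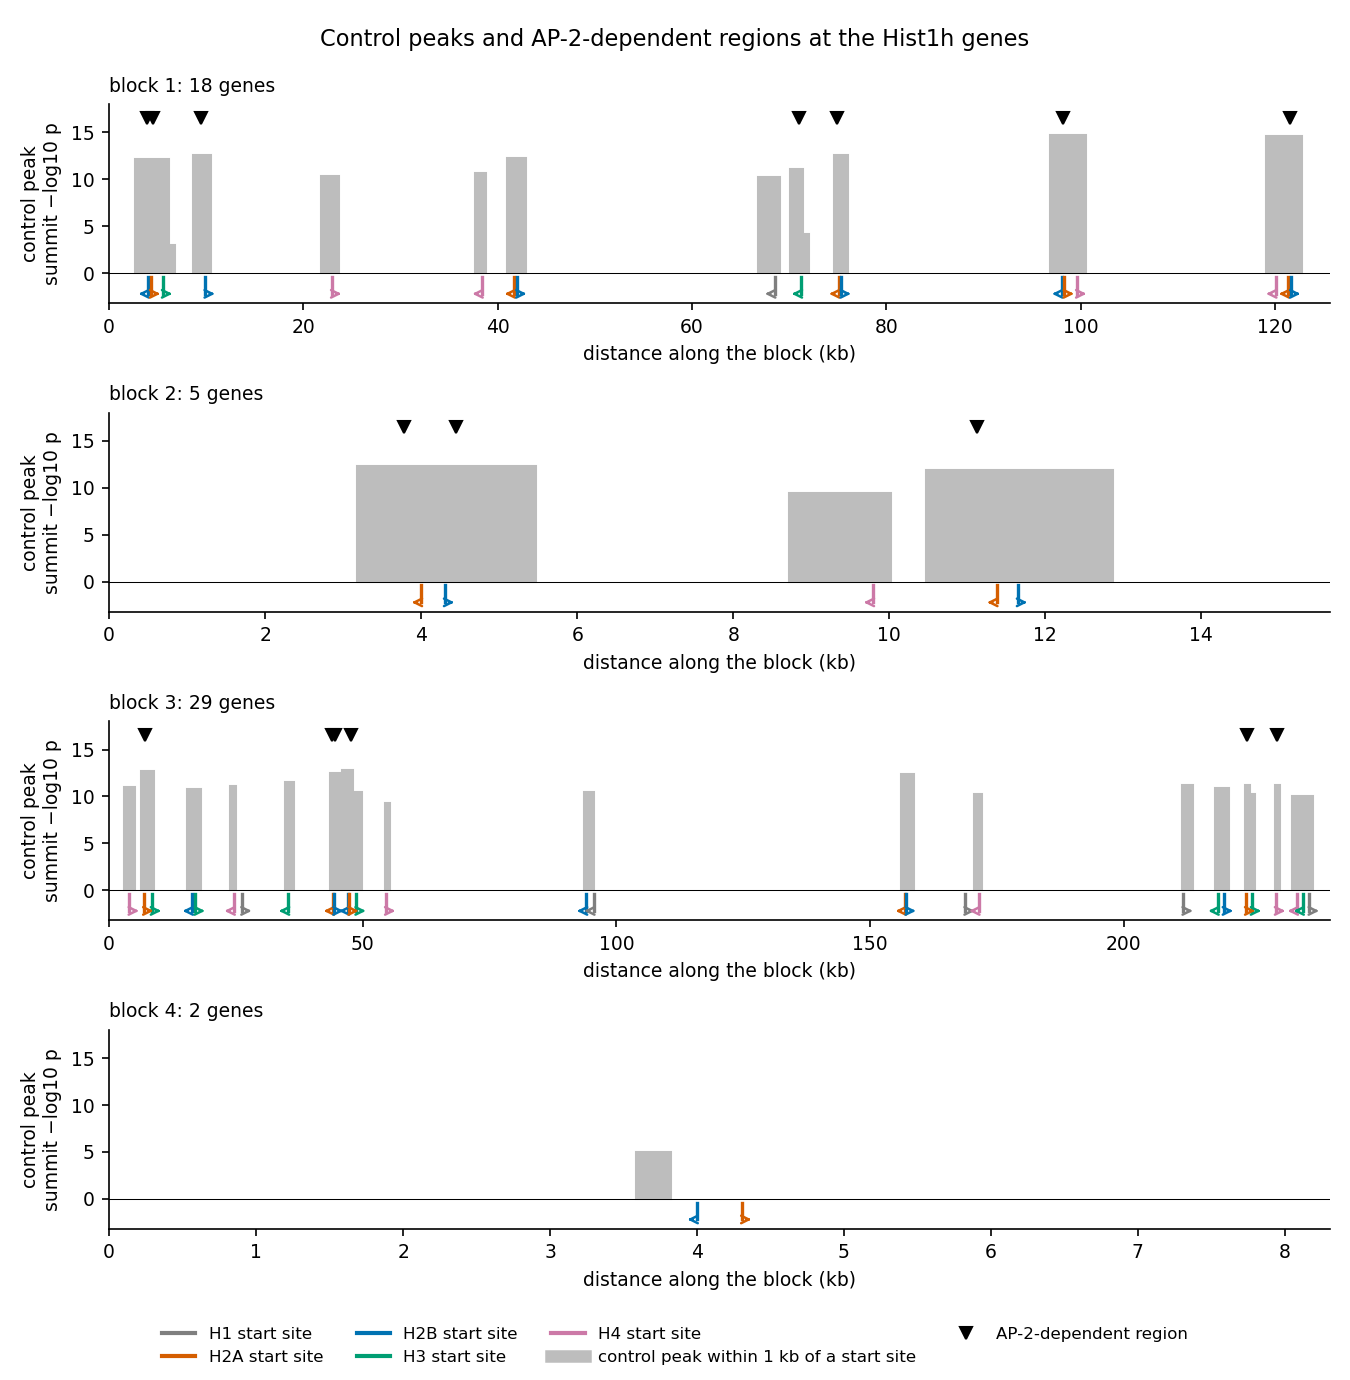
Map of the 4 blocks, each on its own distance scale in kb, with control peaks centred within 1 kb of a start site drawn as grey bars at their width and their summit −log10 p. Coloured ticks mark start sites by class, their arrows point in the direction of transcription, and triangles mark the 16 AP-2-dependent regions, none of which lies in block 4.

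The strength of a control peak was read from the −log10 p that Genrich gave at its summit. Over the 34 peaks its median was 11.1, with 10.3 and 12.3 as quartiles and a range from 3.03 to 14.7, and over the 13183 control peaks at other start sites the median was 9.21. Of the 34 peaks, 31 were above that median. They were also wide, with a median of 1896 bp against 1315 bp, and 32 of 34 reached into the coding sequence of a Hist1h gene. By gene, the peak nearest to the start site had a median −log10 p of 12.4 for H2A, 12.3 for H2B, 10.8 for H3, 10.7 for H4 and 10.4 for H1. This peak was taken at any distance, and for Hist1h1d, Hist1h1t, Hist1h1a and Hist1h4a it was centred beyond 1 kb. A shared peak counts for each of its genes, so the H2A and H2B values come largely from the same peaks. The classes overlapped widely in these values.

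The strongest peaks belonged to 2 neighbouring sets of 3 genes. The peak shared by the H2B gene Hist1h2bq, the H2A gene Hist1h2ao and the H4 gene Hist1h4m reached 14.7 at a width of 3764 bp. The peak of Hist1h2br, Hist1h2ap and Hist1h4n reached 14.6 at 3744 bp. Both are stronger than at least 98.6% of the control peaks at other start sites. The sets are copies of each other: each coding sequence of one is identical to its counterpart in the other, and 97.9% of the 31-base words of either peak occurred at least 2 times in the genome. A read pair from such words can be placed in either copy, so the 2 peaks are not separate measurements.

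The weakest peak counted was a narrow one with its summit 876 bp downstream of the start of the H3 gene Hist1h3h, with a −log10 p of 3.03. The start site of Hist1h3h itself lay under the peak of Hist1h2bl and Hist1h2ai, which is 3499 bp wide with a −log10 p of 12.2. The testis-type pair Hist1h2ba and Hist1h2aa had a single narrow peak of 241 bp at 5.03, centred 296 bp inside Hist1h2ba, and neither start site lay under it. Both genes thus count as open by distance alone. The same peak had a median copy number of 8 for its words.

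The 4 genes without a control peak within 1 kb were the H4 gene Hist1h4a and the H1 genes Hist1h1d, Hist1h1t and Hist1h1a. Hist1h4a and Hist1h1a lay under a broad peak of 4309 bp, with a −log10 p of 10.1, which covered their start sites but was centred 1057 and 1379 bp upstream. Hist1h1d has its annotated start 1828 bp before its coding sequence, where a peak of 1747 bp at 10.1 was found. The testis type Hist1h1t, by contrast, had its nearest peak centred 2525 bp away, and this is the peak of Hist1h4c. Just inside the limit of 1 kb were Hist1h3h, at 973 bp, and Hist1h4m, at 916 bp. A start site far from the coding sequence also marks Hist1h2be, at 35168 bp, where a further peak of 1237 bp at 11.3 covered the first coding base. The annotated start of Hist1h2be lies within the H1 gene Hist1h1e, and the peak counted for it, at 10.5, is also that of Hist1h1e.

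The genes that serve these promoters were open to a similar extent, where the share over all protein-coding genes was 63.4%. Of 16 genes for histone transcription and mRNA processing, among them Npat, the coactivator of histone genes, and Slbp, the stem-loop binding protein, 15 had a control peak, with Pou2f1 as the exception. All 13 genes for histone chaperones and replication had one, such as Asf1b, a chaperone of H3 and H4, and Pcna, the sliding clamp. The 13 replication-dependent histone genes on other chromosomes (Hist2h, Hist3h and Hist4h) were open without exception, with a median −log10 p of 12 per gene, beside 11.7 per Hist1h gene. Of 17 histone variant genes, such as H2afz, whose product replaces H2A, 10 had a control peak. This is 58.8% (36 to 78.4%), close to the 63.4% of all protein-coding genes. The 7 without one include the germline genes H1foo and H1fnt, and also H3f3b, whose annotated principal start had no peak within 1 kb.

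The tissue label was read against markers in the same way. A control peak within 1 kb, which 63.4% of all protein-coding genes had, was present in 12 of 13 surface ectoderm markers, all but Grhl3. The same held for 8 of 8 mesenchyme markers. Such a peak was present in 0 of 4 blood and 1 of 3 endothelial markers. The part of other cells in the histone peaks was not tested.

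AP-2-dependent regions were frequent at these genes. A region was centred within 1 kb of the start site in 22 of 54 genes, 40.7% (28.7 to 54%), where the share over all protein-coding genes was 0.634%. The share was 25.9% (14 genes) for regions whose area under the curve reached 500, and 7.41% (4 genes) when the region had to cover the start site, beside 0.324 and 0.269% of all protein-coding genes. By class, for centres within 1 kb, it was 10 of 13 H2A, 9 of 15 H2B, 2 of 9 H3, 1 of 11 H4 and 0 of 6 H1 genes. Within 10 kb it was 39 of 54 genes, 72.2% (59.1 to 82.4%), beside 2.60% of all protein-coding genes. The 22 genes rest on 16 distinct regions, and no further region lay between 1 and 10 kb of a start site or elsewhere in the span of the cluster.

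The 34 control peaks gave the same picture by peak. A region overlapped 13 of them, 38.2% (23.9 to 55%), while 0.984% of all control peaks at protein-coding start sites were overlapped. All 16 regions lay inside these 13 peaks. They were far smaller than the peaks that held them, with a median width of 247 bp and between 4.57 and 28% of the width of the control peak. Of the 22 control peaks centred between 1 and 10 kb of a Hist1h start site, 0 were overlapped. The testis pair, which alone makes up block 4, had no region.

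Outside the cluster, of the 13 Hist2h, Hist3h and Hist4h genes, only Hist2h3c2, an H3 gene, had a region within 1 kb, with a −log10 p of 3.61. This is 7.69% (1.37 to 33.3%) of them, beside the 0.634% of all protein-coding genes. Within 10 kb it was 4 of 13 genes, 30.8% (12.7 to 57.6%), beside 2.60%, but all 4 rest on the 1 region at Hist2h3c2. A region overlapped 1 of the 8 control peaks at the 13 genes, 12.5% (2.24 to 47.1%), beside 0.984%. None of the 17 variant genes, the 16 genes of transcription and processing, the 13 chaperone and replication genes or the 49 other genes within the span had one within 1 kb. At a share of 0.634% lists of this length would hold fewer than 1 such gene each, so nothing is read from these zeros.

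**Figure D2:**
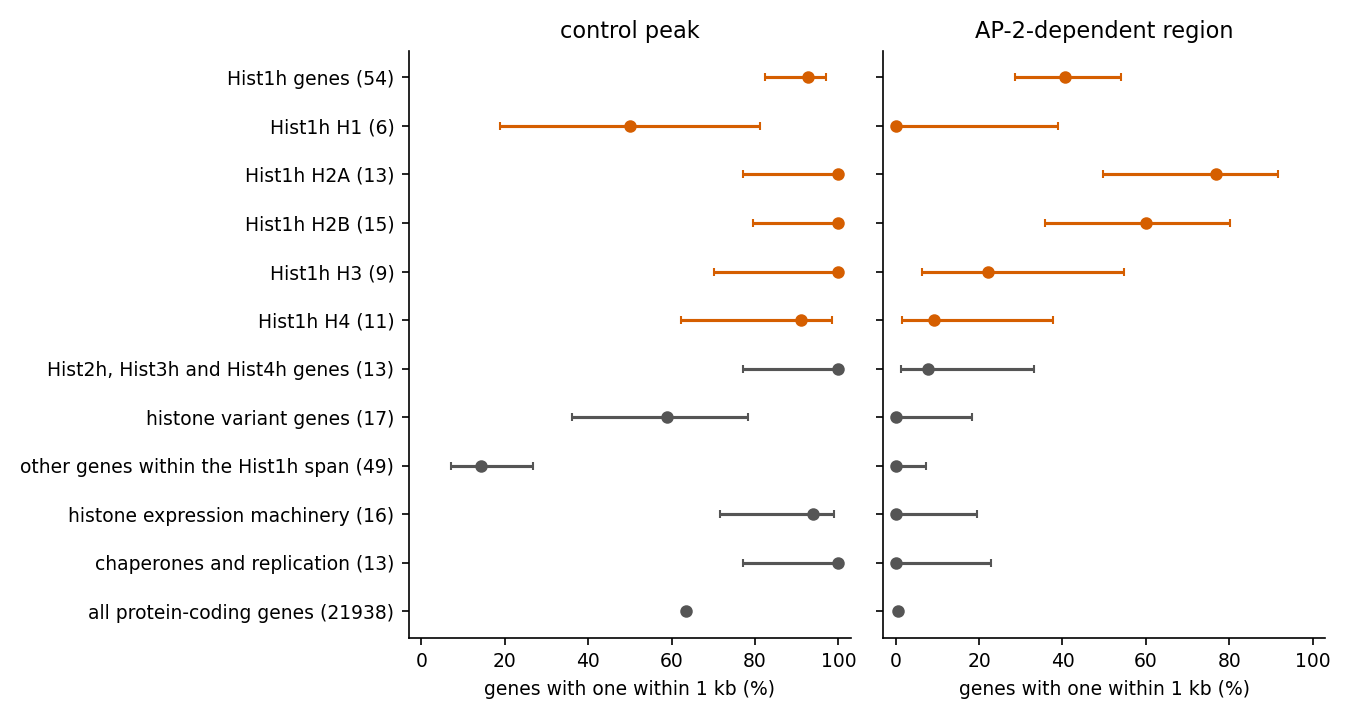
Share of genes in percent with a control peak (left) or an AP-2-dependent region (right) centred within 1 kb of the start site, with 95% Wilson intervals as bars and the number of genes in brackets. Hist1h genes and their classes are in orange, and on the right the H2A genes stand highest at 76.9% and all protein-coding genes at 0.634%.

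Most of the regions sat on coding sequence. The centre of 13 of 16 regions, 81.2% (57 to 93.4%), fell in the coding sequence of a Hist1h gene: 8 over H2A, 3 over H2B, 1 over H3 and 1 over H4. Of the 108 regions at other start sites, 4 were centred in coding sequence, 3.7% (1.45 to 9.14%). The control peaks at the Hist1h genes had their summit in coding sequence in 12 of 34 cases, 35.3% (21.5 to 52.1%). At other start sites 713 of 13183 control peaks had, 5.41% (5.04 to 5.81%). A higher share at the Hist1h genes was thus found for control peaks too, though these were scored by summit and the regions by centre. By summit, 14 of the 16 regions at Hist1h genes lay in coding sequence, 87.5%. Most Hist1h coding sequences are short and begin near the start site, and the part of this in the shares was not tested. The 3 regions not centred in coding sequence comprise 2 that spanned both genes of a pair and 1 over the pseudogene Hist1h2aj.

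The H2A regions took the same place in each gene. They were 218 to 310 bp wide in coding sequences of 384 or 390 bp, and they were centred 167 to 233 bp from the first coding base. The highest −log10 p was 7.49, over Hist1h2ad (chr13:23574501-23574810, 310 bp). Next were Hist1h2af at 6.7 (chr13:23533961-23534196, 236 bp) and Hist1h2ab at 6.04 (chr13:23751237-23751474, 238 bp). Hist1h2ad has an H2B partner, and Hist1h2af and Hist1h2ab have none within 500 bp.

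Lower values came from 5 genes with an H2B partner. Hist1h2ai had 5.94 (chr13:21716496-21716785, 290 bp) and Hist1h2an 5.8 (chr13:21786887-21787185, 299 bp). Hist1h2ae had 5.29 (chr13:23570767-23571006, 240 bp), Hist1h2ah 5.13 (chr13:22035211-22035486, 276 bp) and Hist1h2ag 3.85 (chr13:22042586-22042803, 218 bp). The region over the pseudogene Hist1h2aj, with 6.56 (chr13:21721469-21721746, 278 bp), lay between the values of Hist1h2af and Hist1h2ab, and it is what places a region near the H2B gene Hist1h2bm.

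The 3 H2B regions were narrower, at 156 to 205 bp, and nearer to the start of the coding sequence, with centres at 125 to 142 bp. Their −log10 p was 6.17 over Hist1h2bk (chr13:22035910-22036114), 4.94 over Hist1h2bg (chr13:23571498-23571653) and 4.68 over Hist1h2bl (chr13:21715931-21716090). Each of these 3 genes faces an H2A gene that also had a region. The other H2B genes with a region within 1 kb were Hist1h2bq and Hist1h2br, covered by a wide region, and Hist1h2bp, Hist1h2bj, Hist1h2bf and Hist1h2bm, whose region lay over the neighbouring H2A gene or pseudogene.

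A single H3 and a single H4 gene had a region of their own. Hist1h3i had the value 4.02 over 194 bp, and Hist1h4b had 4.78 over 254 bp (chr13:23757127-23757380), the only region centred over a coding sequence that ran past its end. At both genes, and at Hist1h2bg, the region and the control peak had their summit at the same base. Hist1h3b was counted through the region over Hist1h2ab, the next gene. The remaining 8 H3 and 10 H4 coding sequences and all 6 H1 coding sequences were not overlapped by a region.

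**Figure D3:**
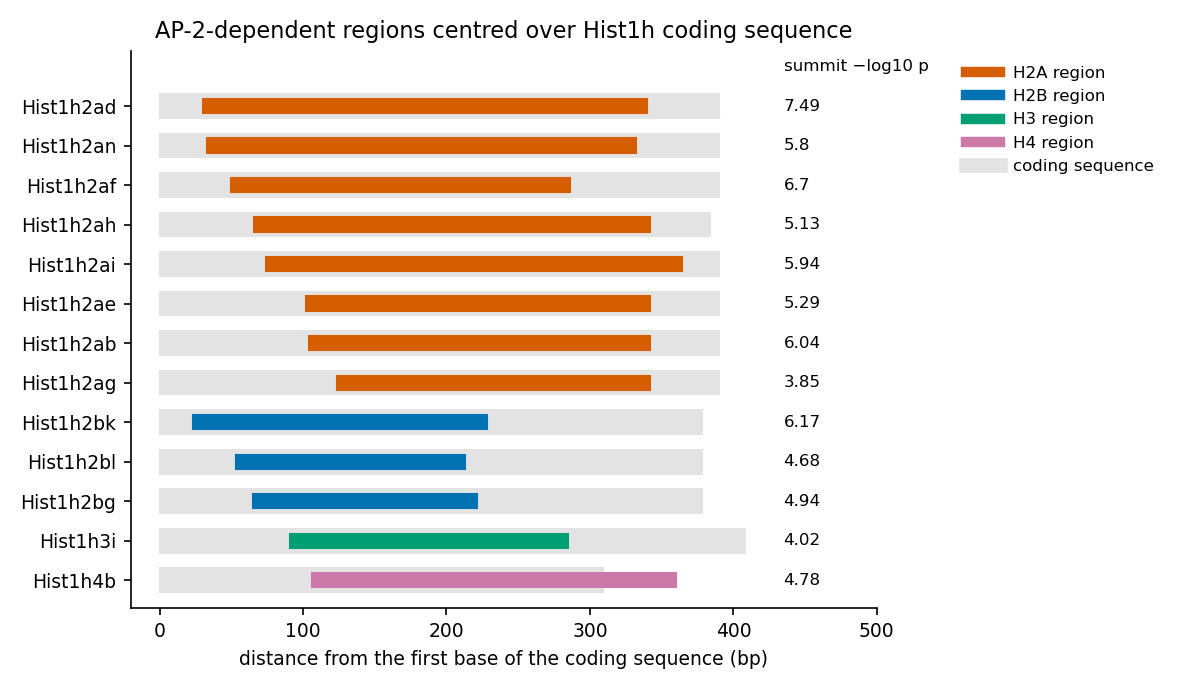
Place of the 13 regions centred over a Hist1h coding sequence, as distance in bp from its first base. Grey bars are coding sequences, coloured bars are regions by class, and the numbers at the right are the summit −log10 p of each region, from 3.85 to 7.49.

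The 11 divergent pairs show the arrangement most directly. Their start sites were 176 to 306 bp apart. In 10 of 11 pairs a control peak covered both start sites, with a −log10 p from 11.9 to 14.7, and the testis pair was the exception. The summit of the control peak lay between the start sites in 7 pairs. In the other 3, Hist1h2bl with Hist1h2ai, Hist1h2bg with Hist1h2ae and Hist1h2bc with Hist1h2ac, it lay in the H2B coding sequence, 270 to 302 bp from the middle. In none of the pairs did it lie in the H2A coding sequence. The peak near the testis pair, which covers neither start site and is left out of these counts, had its summit in the coding sequence of Hist1h2ba.

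The regions, unlike the control summits, commonly lay over H2A coding sequence. Over Hist1h2bl and Hist1h2bg, however, the region had its summit 17 and 0 bp from that of the control peak. In 8 of 11 pairs a region overlapped the H2A coding sequence, and in 5 of these another or the same region overlapped the H2B coding sequence. Of the pairs with a region, 3 had one on the H2A gene alone and 3 had a separate region on each gene. In 2 pairs a single wide region ran over both genes and the DNA between them. These were Hist1h2bq with Hist1h2ao (chr13:21809803-21810817, 1015 bp, −log10 p 8.06) and Hist1h2br with Hist1h2ap (chr13:21833108-21834157, 1050 bp, 7.1), the duplicated sets described above. They are the highest and the third highest of the 16 values.

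**Figure D4:**
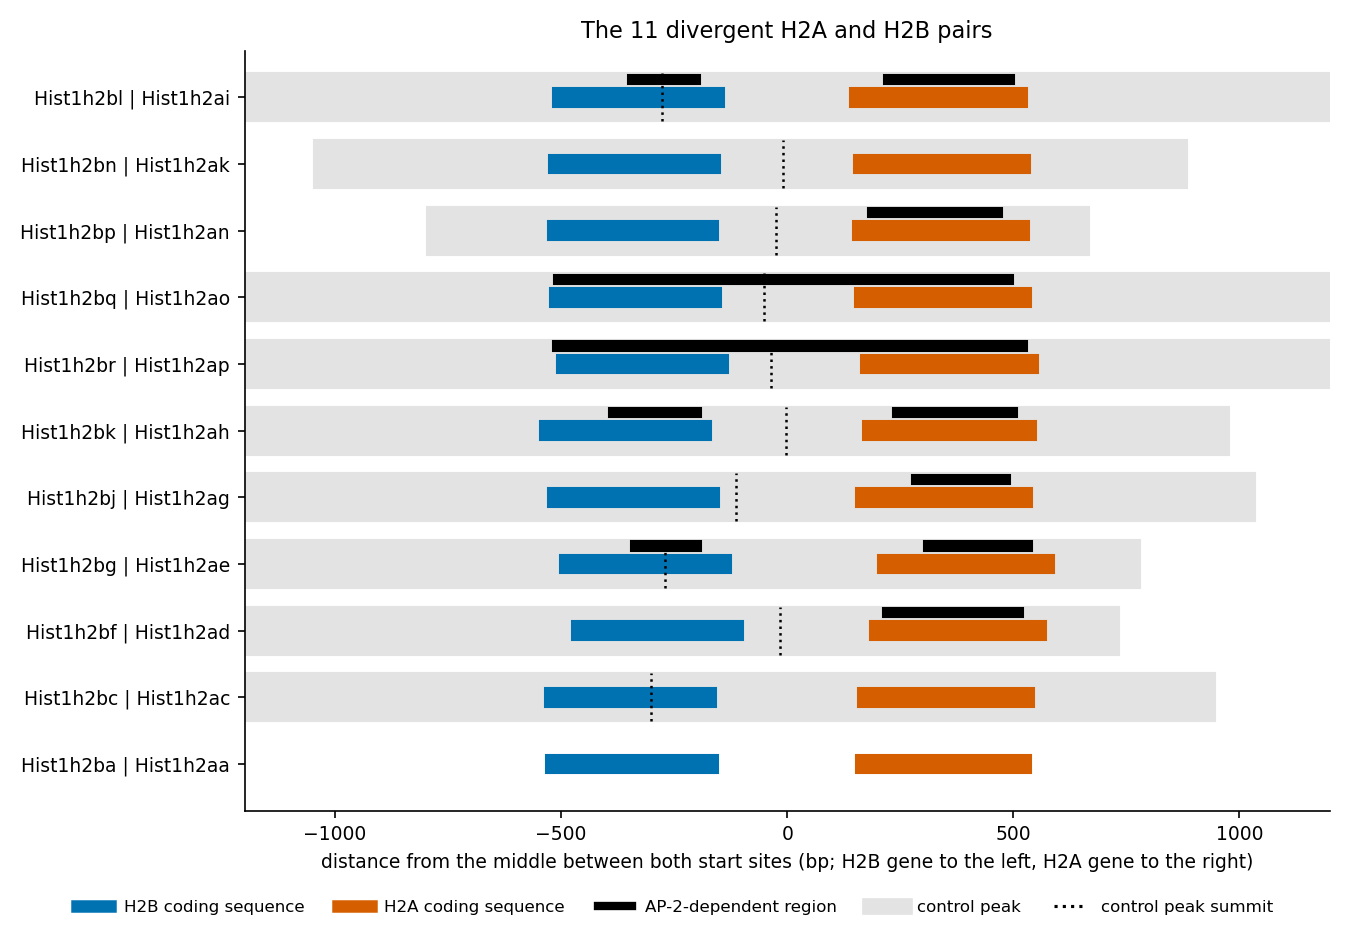
The 11 divergent pairs, aligned at the middle between their start sites, with distance in bp and the H2B gene drawn to the left. Light grey bars are control peaks (cut off at the plot's edges), dotted lines their summits and black bars AP-2-dependent regions, which stop short of the DNA between the genes in all but 2 of the 8 pairs that have one. The peak near the testis pair, which covers neither start site, is not drawn.

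These regions are sequences that the genome holds many times. Copy number was taken as the median count, over both strands of the GRCm38 assembly, of the 31-base words of an interval. It was 9 to 16 in the 16 regions, so that 16 of 16 had a median of at least 2 (80.6 to 100%), and in 15 of 16 every word was repeated. Of the 3056 regions elsewhere on the chromosomes, 336 had such a median, 11% (9.93 to 12.2%), and of the 108 at other start sites 41 had, 38% (29.4 to 47.4%). The 34 control peaks reached it in 3 cases, 8.82% (3.05 to 23%).

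Of the words inside the 16 regions 98.9% were repeated, and of the words of all 34 control peaks outside the regions 26.4% were. The contrast also held within the 13 control peaks that had a region. In 11 of these 13, the remaining words had a median of 1 copy, and 2.83 to 36.9% of them were repeated. The exceptions were the 2 duplicated sets, at 2 copies and 97%. The DNA between the start sites was single-copy in 9 of 11 pairs, and the 2 pairs in which a region crossed it were again the duplicated ones.

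Copy number also differed between classes in the order of their regions. The coding sequences had a median of 13 copies in H2A, 11 in H2B, 8 in H3, 6 in H4 and 1 in H1. The share overlapped by a region was 76.9% in H2A, 33.3% in H2B, 11.1% in H3, 9.09% in H4 and 0% in H1. The H3 and H4 shares rest on 1 gene each. Of the 23 genes with at least 11 copies 15 were overlapped, of the 23 with 2 to 10 copies 2 were, and of the 8 with 1 copy 0 were. All genes with at least 11 copies were H2A or H2B genes, and H3 and H4 genes had at most 8. Copy number and class can therefore not be told apart here. The authors let each read pair be placed at up to 10 positions. The 31-base words of most H2A and H2B genes have more copies than that. Read pairs are longer than these words, and their equal placements were not counted. With 50-base words the regions had a median of 6 to 14 copies. Whether a region over 1 of these genes belongs to that gene alone can therefore not be told. The part of multiple placement in the regions was not tested, and the reads that could show it were not analysed here.

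**Figure D5:**
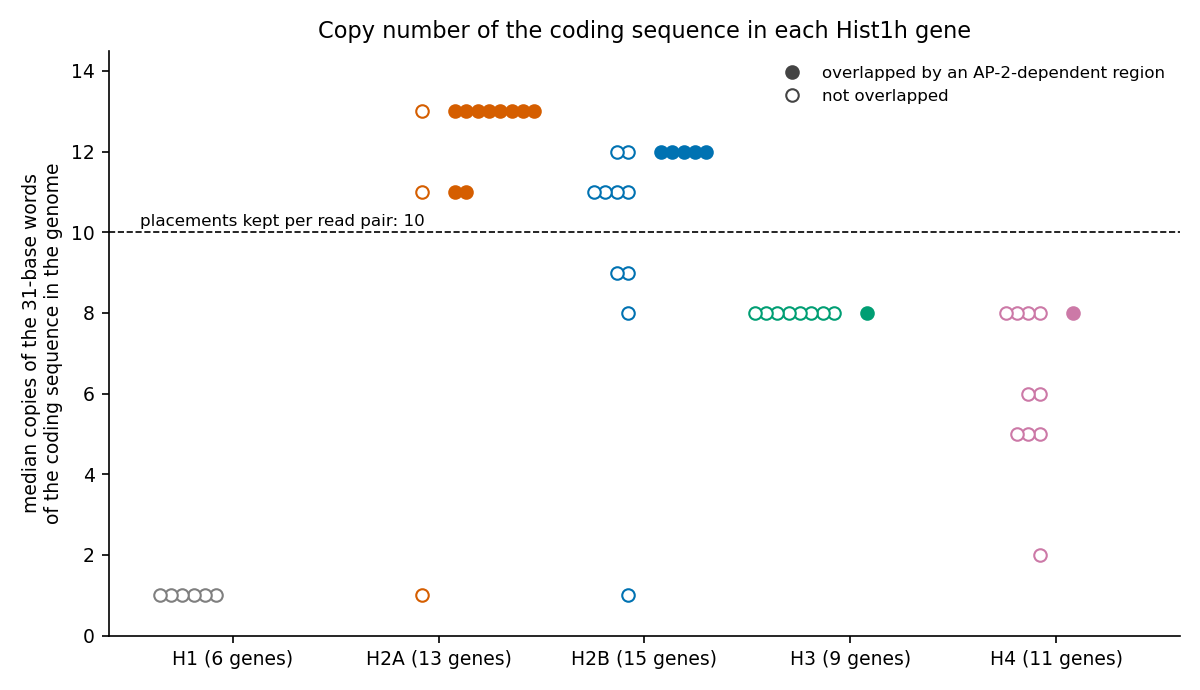
Median number of copies in the genome of the 31-base words of each coding sequence, 1 point per gene by class, filled where an AP-2-dependent region overlaps the coding sequence. The dashed line is the 10 placements kept per read pair, and read pairs are longer than the words counted here. Of the 17 filled points, 15 lie above it, in H2A and H2B, and 2 below it, in H3 and H4.

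Single bases set some of the H2A genes apart. The shared 162 bases were defined by the 8 regions centred over H2A genes, and the reference Hist1h2ai is 1 of these genes. Over these bases 7 of 13 genes were identical. All 7 had a region, but they are among the 8 genes that defined the stretch, so nothing is read from this. With positions counted from 1 at the first coding base and the base of Hist1h2ai given first, Hist1h2ag, Hist1h2ao, Hist1h2ap and Hist1h2ac shared 1 substitution, G150C, and had 16.5 copies as the others did. A region overlapped the first 3 of them but not Hist1h2ac, although its sequence is the same there and its control peak had a −log10 p of 12.4. Hist1h2ak carried 3 substitutions, G159A, G168A and C237T, and its words in this stretch had a median of 1 copy. Over its whole coding sequence the median was 11 copies. Hist1h2ak had no region under a control peak of 12.3. Hist1h2aa differed at 23 of 162 bases, also had 1 copy, and had no region.

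The H2B genes were less clear cut. Over their 148 bases, 8 genes, Hist1h2bl included, were identical, and 5 of these 8 had a region, namely Hist1h2bl, Hist1h2bq, Hist1h2br, Hist1h2bk and Hist1h2bg, while Hist1h2bn, Hist1h2be and Hist1h2bc had none. The 148 bases and the reference Hist1h2bl were also taken from genes with a region, so nothing is read from how identity and regions go together. None of the genes that differed from Hist1h2bl had a region over its own coding sequence. Hist1h2bm, Hist1h2bp, Hist1h2bj and Hist1h2bf, which differed, had a region within 1 kb, over the neighbouring H2A gene or pseudogene. Hist1h2bj, with G126C and C162T, was the single gene among all that differed whose words there had a median of 1 copy. Hist1h2ba, whose coding sequence is longer by a codon, was not compared base by base.

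The AP-2 string was found both with and without a region. Only this exact string was searched, so its absence does not show that AP-2 sites of other sequence are lacking. GCCNNNGGC occurred in 6 of 16 regions, 37.5% (18.5 to 61.4%), and in 29.7% of all 3072 regions on chromosomes. It was in none of the 13 H2A coding sequences, where most of the regions lay, nor in any of the 11 H4 coding sequences. It was in 14 of 15 H2B, 9 of 9 H3 and 6 of 6 H1 coding sequences, and in all 14 of the H2B stretches compared above, with and without a region. It was absent from the DNA between the start sites in all 11 pairs. The H2A regions were rich in G and C, at 70 to 72.2%, and the H2B regions less so, at 57.7 to 60.5%.

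The promoters carried the elements known for histone genes. RefSeq promoters (GRCm38.p6, 250 bases before to 50 after the start) could be matched to 51 of the 54 genes, all but Hist1h3f, Hist1h2bc and Hist1h3a. With both strands searched, CCAAT was in 43 of 51, 84.3%, beside 37.4% of all 32851 promoters. It was in every matched H1, H2A, H2B and H3 promoter and in 3 of 11 H4 promoters. TATAAA was in 31 of 51, 60.8%, beside 13.6% of all promoters, and the octamer ATTTGCAT in 10 of 51, 19.6%, beside 1.74%. The octamer matches were in 5 H2A and 5 H2B promoters and in none of the other classes. GCCNNNGGC was in 5 of 51, 9.8%, beside 16.6% of all promoters. Between the start sites of the pairs, CCAAT was present in 11 of 11 pairs, with 2 to 5 matches each, TATAAA in 6 and the octamer in 4. A match is a description of the letters and shows no binding.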

How the data were processed

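Read pairs of 4 ATAC-seq libraries (2 control, 2 EDKO) had been trimmed by the authors with NGmerge, mapped with bowtie2 (mm10, --very-sensitive, -k 10) and given to Genrich v0.5 in ATAC-seq mode, without PCR duplicates and chrM. The authors called control peaks from both control libraries, and AP-2-dependent regions from the same libraries against both EDKO libraries. The deposited columns are a score (1000 times the area under the curve per bp, capped at 1000), the area under the curve, itself a score, the −log10 p at the summit without adjustment, and the offset of the summit. Values were used within their own list. Read counts per library were not used here, so no test across libraries was made, and the depth behind single peaks is unknown.

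Coordinates are on GRCm38, counted from 1. Principal start sites followed APPRIS in GENCODE vM21. Word counts covered chromosomes and unplaced sequence without chrM, and the counting was tested on simulated sequence. Shares carry 95% Wilson intervals (statsmodels 0.14.6), coding sequences were aligned with Biopython 1.88, and no p-value was computed. Named in full were genes with a region or without a control peak within 1 kb, the 5 with the strongest peak (a tie gave 6) and the testis types. Hist1h2aj and the genes named for single bases were added after their values were seen. H3f3c, on the variant list, has no entry in the annotation. The members and lists were chosen with earlier results of these data known. For 6 results, 32 alternatives were computed.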

Additional observations from a re-analysis of the deposited data

How the results depend on the processing

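Of 32 alternatives to 6 results, 24 stayed within the interval or quartiles of the reported value and 8 did not, 1 of which is on another scale. The share of Hist1h genes with a control peak, 92.6%, was 68.5% for centres within 500 bp (55.9% of all protein-coding genes) and 98.1% within 2 kb (66.5%). The share with an AP-2-dependent region, 40.7%, was 7.41% when the region had to cover the start site and 25.9% for regions whose area under the curve reached 500, beside 0.269 and 0.324% of all protein-coding genes. The share of control peaks overlapped by a region, 38.2%, was 0% when 50% of both intervals had to overlap, since the regions are far narrower than the peaks, and 23.2% when control peaks within 10 kb were included. The share of regions on coding sequence, 81.2%, was 93.8% when 50% of the region had to lie there. Area under the curve per bp of width is on another scale than the −log10 p at the summit and says nothing of how stable the median of 11.1 is: its median was 4.12 over the Hist1h control peaks and 2.82 over those at other start sites. Counting each divergent pair once gave 90.7% for control peaks and 32.6% for regions. Distances to the start of the coding sequence (94.4 and 38.9%) and leaving out the testis types (94.1 and 43.1%) were chosen after seeing the data. No paired analysis was possible because the libraries of each group were combined in the calls, and no library could be left out for the same reason.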
